A study of Mus musculus with 12 samples.

Results

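This report describes the regions of H3K9me3, a trimethylated form of histone H3, that were 5 to 8 kb wide in mouse embryonic stem cells. They were chosen by the deposited start and end of each region, that is by width alone, from 5000 to below 8000 bp, on chromosomes 1 to 19 without chromosomes 11 and 16. Of 68291 regions in the authors' deposited table, 1076 met this rule, and they are 1.81% of the 59583 regions on the 17 chromosomes used.

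H3K9me3 is a mark of heterochromatin. In embryonic stem cells the methyltransferase SETDB1, brought to DNA by KRAB zinc finger proteins and their cofactor TRIM28, places it over many endogenous retroviruses and over the methylated copies of imprinting control regions. A full-length retroelement measures several kilobases, about the width used here. Tex19.1, active in the germ line and in pluripotent cells, is known for a role in the control of retroelements. No repeat annotation was used here, so how many of these regions lie over retroelements was not analysed.

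Chromatin immunoprecipitation with sequencing (ChIP-seq) compared Tex19.1+/- with Tex19.1-/- cells, with 3 immunoprecipitated and 3 input libraries for each genotype. All cells derive from the E14Tg2a line of 129/Ola background, were grown in serum with leukaemia inhibitory factor and were used at passages 12 to 20. The sources used here do not give the number of clones per genotype or say that libraries of 1 group are separate cultures, so p-values may measure technical spread only. The genotype field contradicts the title in 6 of the 12 libraries, and groups follow the titles. Which genotype served as reference is not stated in the table, so each log2 fold change is given with its sign as deposited: a positive value is higher in 1 genotype, the same one for every region. How libraries were scaled to each other is not given in the sources used here, and a change common to all regions may not appear. Library totals and single-library values were not analysed here.

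The start of a gene lay inside few of these regions. RefSeq promoter windows (GRCm38.p6, 250 bases before to 50 after a start) were wholly inside 44 of the 1032 members on chromosomes whose windows were used. Some genes had no window, so this count is a lower limit. These 51 windows held a median of 4 CpG dinucleotides, against 7 in all 32851 windows, and 17.6% of them had at least 10 CpG against 43.5% of all. The hexamer TGCCGC, known as the motif of the imprinting factor ZFP57 and counted on both strands, was in 7.84% of the windows inside members and in 11.6% of all windows. The sequences below are promoters inside members that are named in the later results. The first 2 lie in called members, and the other 3 lie in the uncalled members of highest signal that hold a protein-coding start. The third called member with a window, at LOC108167320, is not shown, and its window holds 100 undetermined bases. Each is 5′ to 3′ on the gene's strand, with CpG in capitals.
Fat1, chr8:44949958-44950257, + strand: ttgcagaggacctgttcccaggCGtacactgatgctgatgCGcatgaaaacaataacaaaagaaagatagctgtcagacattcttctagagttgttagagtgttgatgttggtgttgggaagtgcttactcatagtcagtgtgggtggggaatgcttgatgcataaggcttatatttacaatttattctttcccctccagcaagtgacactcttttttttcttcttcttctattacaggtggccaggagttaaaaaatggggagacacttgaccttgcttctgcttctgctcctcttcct
Gm10505, chr17:27324946-27325245, + strand: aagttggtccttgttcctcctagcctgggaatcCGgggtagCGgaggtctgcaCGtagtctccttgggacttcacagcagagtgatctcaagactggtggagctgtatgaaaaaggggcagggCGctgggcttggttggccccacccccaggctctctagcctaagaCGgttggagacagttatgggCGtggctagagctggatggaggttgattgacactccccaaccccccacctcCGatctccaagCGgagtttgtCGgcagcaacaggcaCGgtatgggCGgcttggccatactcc
Fbxw23, chr9:109543140-109543439, - strand: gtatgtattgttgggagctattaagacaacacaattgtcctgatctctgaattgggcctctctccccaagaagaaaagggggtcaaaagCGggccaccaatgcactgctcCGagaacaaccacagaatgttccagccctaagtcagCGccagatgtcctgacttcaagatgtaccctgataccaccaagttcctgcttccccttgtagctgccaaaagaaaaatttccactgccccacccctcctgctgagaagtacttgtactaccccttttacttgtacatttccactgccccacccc
Plagl1, chr10:13090582-13090881, + strand: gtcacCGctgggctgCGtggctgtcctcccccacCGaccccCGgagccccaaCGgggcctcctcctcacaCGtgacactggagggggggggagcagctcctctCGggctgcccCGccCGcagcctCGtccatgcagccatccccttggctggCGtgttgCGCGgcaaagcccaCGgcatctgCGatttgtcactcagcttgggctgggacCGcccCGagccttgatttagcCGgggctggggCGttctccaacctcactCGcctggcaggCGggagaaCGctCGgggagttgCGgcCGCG
Zfp872, chr9:22187916-22188215, + strand: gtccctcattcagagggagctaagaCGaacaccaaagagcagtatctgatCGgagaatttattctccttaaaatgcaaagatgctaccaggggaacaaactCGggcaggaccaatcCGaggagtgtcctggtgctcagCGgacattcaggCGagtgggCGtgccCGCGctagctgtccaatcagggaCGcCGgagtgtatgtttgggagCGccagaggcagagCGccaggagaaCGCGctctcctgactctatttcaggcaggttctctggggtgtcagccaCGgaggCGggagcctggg

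The windows differ widely in CpG content. The start of Fat1 that RefSeq lists here, an internal start of the gene, has 2 CpG and that of Fbxw23 has 3, while Gm10505 has 11, Zfp872 has 17 and Plagl1 has 26. Of the 5 windows, Plagl1 alone holds TGCCGC, on the opposite strand at bases 161 to 166 of the window. The member over Gm10505, a long noncoding RNA gene, also contains the only microRNA gene inside any member, Mir7216 (+ strand, chr17:27328385-27328460). Its mature forms are shown with the seed, bases 2 to 8, in capitals, and their seeds differ.
mmu-miR-7216-5p: uGGAGAGCuggcagaggacccaga
mmu-miR-7216-3p: uGGAAUUUggucuuuuccggc

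Width chose the members and signal rises with it, so both are given as a description. The widths had no peak within the range: the number of regions per 0.25 kb fell from 174 in the first bin to 32 in the last, between 201 in the bin before and 36 in the bin after. At the lower limit, the members of 5002 bp had log2 fold changes of -0.09 and 0.05 in the authors' deposited table, and the regions of 4996 and 4997 bp left out had 0.05 and -0.24. At the upper limit, members of 7971 and 7997 bp had -0.14 and -0.05, and the 2 regions of 8001 bp left out had -0.07 and -0.25 in the authors' deposited table. The members covered 6.58 Mb and held 10.9% of the CPM (reads scaled to library size) on the 17 chromosomes in 9.08% of the covered length. Their median signal was 90.5 CPM, or 14.96 CPM per kb, against 11.4 CPM per kb over all regions there, 13.6 in regions of 3 to 5 kb and 16.6 in regions of 8 kb or more.

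**Figure D1:**
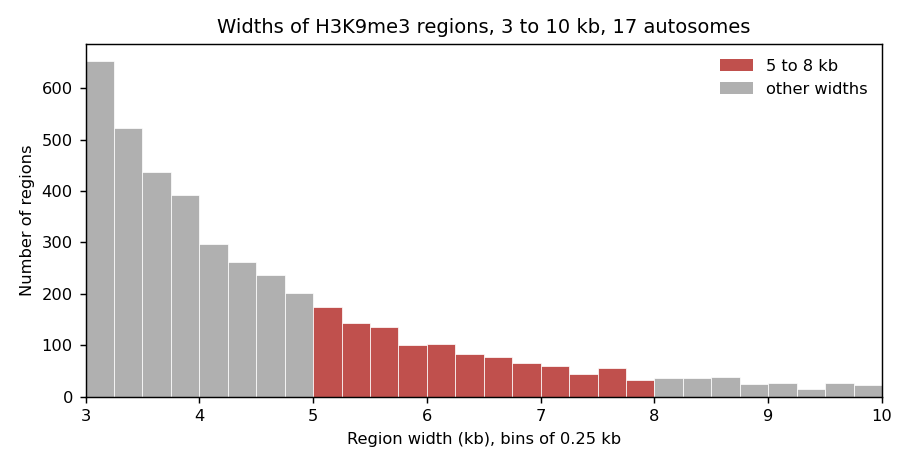
Number of regions (vertical axis) per 0.25 kb of width (horizontal axis, kb) on the 17 autosomes used, with the 1076 regions of 5 to 8 kb in red and other widths in grey. The counts fall through the selected range, from 174 to 32 per bin, with small rises between single bins and no separate peak.

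Signal per kb was even across most members. Its quartiles were 13.01 and 17.04 CPM per kb, and the lowest was 8.61. A few stood far above. The densest member, on chromosome 9 over the long noncoding RNA gene Gm51701, 27444 bp from the chemokine receptor gene Ccr1, had 151 CPM per kb. It was followed by a member on chromosome 13, 2277 bp from Tmem267, with 79.5 CPM per kb, and one on chromosome 4 near the pseudogenes Gm13036 and Gm13034 with 51.2. The fourth, near the vomeronasal pseudogene Vmn1r-ps60 on chromosome 7, had 44.1. All 4 had negative log2 fold changes in the authors' deposited table (-0.30, -0.13, -0.14 and -0.28 in that order), and those at Gm51701 and near Vmn1r-ps60 were called. The sparsest members lay in no protein-coding gene, and none was called: 8.61 CPM per kb on chromosome 17 (log2 fold change -0.17), 9.05 in Gm30551 on chromosome 13 (0.45, FDR 0.24) and 9.09 on chromosome 3 (-0.23) in the authors' deposited table. Among the 6 members of highest CPM, 1 was positive, near H2-T-ps in the major histocompatibility complex on chromosome 17 (36100315 to 36107703, 245 CPM), at 0.04 (FDR 1) by the authors' deposited table.

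Most members differed little between the genotypes, and the small values leaned to 1 side. The median log2 fold change was -0.09, the quartiles were -0.16 and -0.0047, and 819 of 1076 members (76.1%) were negative. Over all regions of the table the median was -0.0058 and 50.8% were negative. Regions of like signal and other width leaned alike. Those with a log2 CPM of 6 to 7 had a median of -0.10 with 78.5% negative, beside -0.09 and 77.0% for members of the same signal. With the median of all regions in the same bin of 0.5 log2 CPM subtracted, the members' median was 0.0069 and 47.4% were negative. The members are part of that reference, with 431 members beside 130 regions of other widths at a log2 CPM of 6.5 to 7. This result is therefore partly fixed in advance. The magnitude of the values was narrow as well, with 92.1% within 0.25 of 0 and 5 members at 0.5 or beyond. A standard error (SE), derived from the deposited log2 fold change and p-value, could be given for 532 members and had a median of 0.10 for a single member.

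By the authors' FDR below 0.05, 22 of the 1076 members (2.04%) were called, 12 positive and 10 negative. Over all regions 0.281% were called, 0.192% as positive and 0.0893% as negative, and over the 17 chromosomes 0.181%, 0.094% and 0.0873%. Calls were more frequent at higher signal, and the weakest member had a log2 CPM of 5.52. Of regions of other widths on the 17 chromosomes with at least that signal, 1.88% were called, 0.752% as positive and 1.13% as negative. They share only this lower limit with the members: 1701 of them, but 82 members, had a log2 CPM of 5.5 to 6. At a log2 CPM of 6 to 7, 14 of 887 members were called, 8 positive and 6 negative. Of 736 regions of other widths at that signal, 13 were called, 7 positive and 6 negative. An unadjusted p below 0.05 was found in 193 members (17.9%). The share was 15.3% for other widths with at least the weakest member's signal, 3.68% for the 17 chromosomes and 4.74% for all regions. The called values ran from -0.50 to -0.25 and from 0.30 to 1.04. The negative ones reached the strongest members, from 65.7 to 1091 CPM, while the positive ones had 63.0 to 186 CPM. All 22 kept their sign after subtraction of the median of like signal or of the chromosome's median. At an FDR below 0.01, 13 were called (0.148% of all regions), under Holm adjustment 7 (0.0703%) and with Benjamini-Hochberg adjustment over the 17 chromosomes alone 17 (0.153% there).

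**Figure D2:**
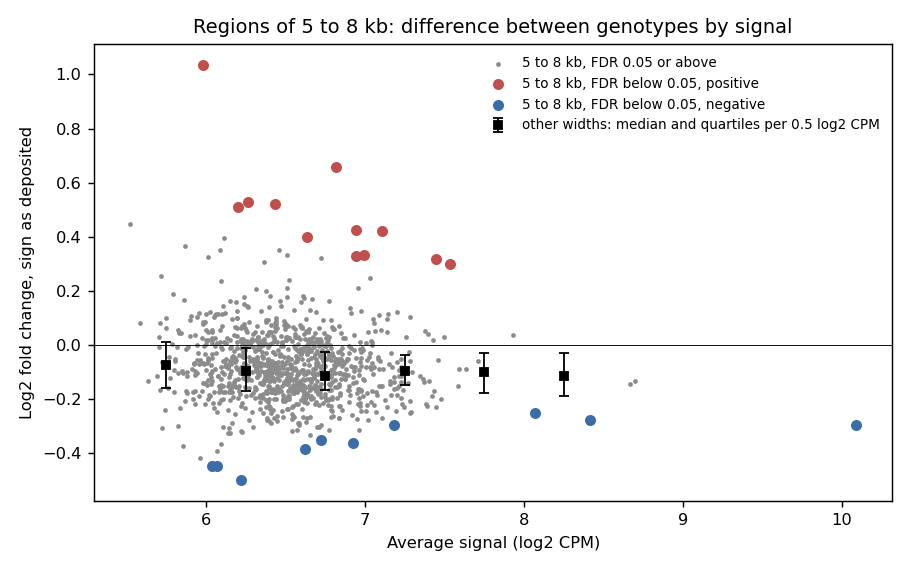
Log2 fold change with its deposited sign (vertical axis) against average log2 CPM (horizontal axis) for the 1076 regions of 5 to 8 kb, with called positive regions in red and called negative ones in blue. Black squares and bars give the median and quartiles of regions of other widths per 0.5 log2 CPM. The medians lie below 0, in the same range as most members, and the upper quartile reaches above 0 at a log2 CPM of 5.5 to 6.

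Members in genes leaned less to the negative side than members outside them. A protein-coding gene was overlapped by 227 members (21.1%), another gene alone by 173 (16.1%) and no gene by 676 (62.8%), against 25.3% and 63.5% for the first and last class among all regions of the 17 chromosomes. The median log2 fold change was -0.05 in protein-coding genes, where 66.1% were negative, -0.09 in other genes and -0.10 outside genes, where 79.4% were negative. After subtraction of the median of like signal the first became 0.045 and the last -0.0038. The order was the same in each of 4 equal groups by signal per kb, with medians of -0.04, -0.04, -0.05 and -0.06 in protein-coding genes and -0.07, -0.10, -0.09 and -0.13 outside genes, from sparse to dense. It was also seen in regions of 3 to 5 kb (-0.05 and -0.07) and of 8 kb or more (-0.07 and -0.11). The quartile ranges overlap widely, and the difference was not tested. Of the 12 positive calls 8 lay in a protein-coding gene, and of the 10 negative calls 1 did. Over all widths on the 17 chromosomes these were 25 of 56 positive and 12 of 52 negative calls.

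**Figure D3:**
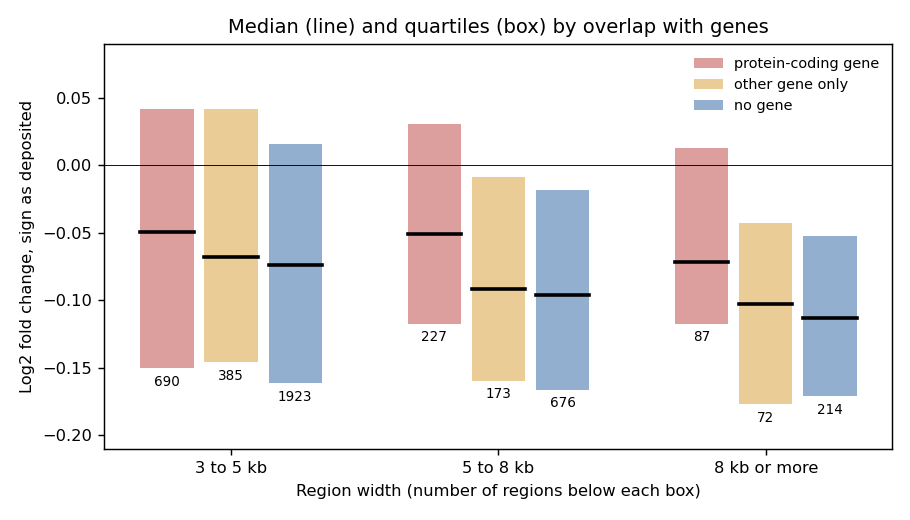
Median (black line) and quartiles (box) of the log2 fold change, sign as deposited, for regions of 3 to 5 kb, 5 to 8 kb and 8 kb or more that overlap a protein-coding gene (red), another gene alone (yellow) or no gene (blue), with the number of regions below each box. In each width class the median in protein-coding genes is the least negative, -0.05 against -0.10 at 5 to 8 kb, and the boxes overlap.

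The positive calls in protein-coding genes were led by Fat1, an atypical cadherin. The member (chromosome 8, 44948650 to 44955099, 63.0 CPM) covers the internal start printed above and had a log2 fold change of 1.04, a 2.05-fold difference (SE 0.12, FDR 1.21e-13) in the authors' deposited table. All 8 other regions within 100 kb were positive too, with a median of 0.85 and 1 further call. In Zfp532, a zinc finger gene (chromosome 18, 65620021 to 65626877, 113 CPM), the authors' deposited table gives 0.66 (SE 0.09, FDR 1.19e-09). Its 3 neighbours had a median of 0.13, and none was called. Eif3f, a subunit of translation initiation factor eIF3 (chromosome 7, 108935352 to 108942057, 86.3 CPM), had 0.52 (SE 0.10, FDR 0.000468) in the authors' deposited table, while its 3 neighbours were all negative. The calls at Fat1, Zfp532 and Eif3f held under Holm adjustment.

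The other 5 positive calls in protein-coding genes were smaller. Zscan25, a zinc finger gene with a SCAN domain (chromosome 5, 145288155 to 145294985), had 0.51 (SE 0.11, FDR 0.00415) in the authors' deposited table, with 4 of 11 neighbours positive. Agrn, which encodes the basement membrane proteoglycan agrin (chromosome 4, 156176274 to 156183752), had 0.40 (SE 0.09, FDR 0.0123), and 2 narrower neighbours with 0.95 and 1.04 were called positive as well in the authors' deposited table. On chromosome 1, Dusp27 (166095220 to 166103057) and Gpa33, an intestinal surface antigen (166161817 to 166168990), each had 0.33 in the authors' deposited table, with FDR values of 0.0228 and 0.0368. These 2 members lie within 100 kb of each other, and the medians of their 11 and 12 neighbours were -0.04 and -0.00037. Hjurp, the chaperone of the centromeric histone CENP-A (chromosome 1, 88268655 to 88276443), had 0.30 (FDR 0.00979) in the authors' deposited table, and 9 of its 23 neighbours were positive. The calls at Zscan25, Agrn, Dusp27, Gpa33 and Hjurp were lost under Holm adjustment, and that at Gpa33 also with adjustment over the 17 chromosomes alone. The centres of the members in Zscan25, Dusp27 and Gpa33 lay at 94.3%, 96.7% and 97.0% of the gene's length from its start, while those in Eif3f, Agrn, Hjurp and Fat1 lay at 57.0%, 54.3%, 27.1% and 15.8%. Exons and introns were not analysed here.

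Of the remaining 4 positive calls, 3 lay in no gene on chromosome 13, and nearly all their neighbours were positive. A pair of members near the vomeronasal receptor gene Vmn1r208 had 0.42 (22747810 to 22754119, FDR 0.000278) and 0.53 (22784519 to 22789980, FDR 0.00119) in the authors' deposited table. Of their 24 and 22 neighbours, 23 and 21 were positive, with a median of 0.48 for both. The third, 5602 bp from Gmnn, the gene of the replication inhibitor geminin (24767539 to 24774239), had 0.42 (FDR 0.000926) in the authors' deposited table, and its 3 neighbours had a median of 0.57. Of these 3 members, only the one at 0.53 was above its neighbours' median. Without this stretch and 2 others, on chromosomes 6 and 10, 19 of 1070 members (1.78%) were called, 9 positive and 10 negative. The stretches were chosen with earlier results of these data known, so the loss of these 3 positive calls was fixed in advance. The last positive call was the member over Gm10505 and Mir7216 on chromosome 17 (27324155 to 27331822, 174 CPM), whose sequences are printed above. It had 0.32 (SE 0.07, FDR 0.00634) in the authors' deposited table. Its 22 neighbours had a median of 0.0018 and included 2 wider ones called negative, at -0.16 and -0.22.

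Among the negative calls the most precise was the densest member, over Gm51701 near Ccr1 (chromosome 9, 123927439 to 123934682, 1091 CPM). Its log2 fold change was -0.30 (SE 0.03, FDR 2.56e-18) in the authors' deposited table. The adjoining region of 2156 bp had -0.32 in the authors' deposited table and was called too, and 7 of 8 neighbours were negative. The member near Vmn1r-ps60 (chromosome 7, 12010305 to 12018062, 342 CPM) had -0.28 (SE 0.05, FDR 0.000143) in the authors' deposited table, while 6 of its 10 neighbours were positive. These 2 calls held under Holm adjustment, and the other 8 negative calls did not. Relative to regions of like signal the 2 values were -0.16 and -0.14. Regions with a log2 CPM of 8 or more were pooled in a single bin for this, so both had the same median subtracted.

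The most negative member lay 318031 bp from any protein-coding gene, on chromosome 2 (116553863 to 116560662, 74.5 CPM), at -0.50 (SE 0.11, FDR 0.00365) in the authors' deposited table. A pair lay beside genes of the Cyp3a cluster, cytochromes P450 of drug and steroid metabolism, on chromosome 5. The member 1807 bp from Cyp3a41a (145685240 to 145692242, 269 CPM) had -0.25 (FDR 0.00863), and that 21215 bp from Cyp3a44 (145746189 to 145752768, 122 CPM) had -0.36 (FDR 0.0133) in the authors' deposited table. Their 32 and 31 neighbours had a median of -0.22 each. Of the 5 members from 145 to 146 Mb, 4 were negative, and the fifth was the positive call in Zscan25. Most neighbours of that call were negative too (7 of 11, median -0.06). On chromosome 9 the member over the predicted gene LOC108167320 (124437298 to 124443181) had -0.38 (FDR 0.0284) in the authors' deposited table, near the median of -0.38 of its 15 neighbours.

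The last 4 negative calls had FDR values close to the threshold, and none was called after adjustment over the 17 chromosomes alone. They were a member on chromosome 12 (20753673 to 20758729) with -0.45 and an FDR of 0.0474, one over the pseudogene Gm6831 on chromosome 8 (104781747 to 104787271) with -0.45 and 0.0474, one 26920 bp from the olfactory receptor gene Olfr444 on chromosome 6 (42983352 to 42990348) with -0.35 and 0.0467, and one 59168 bp from the urinary protein gene Mup5 on chromosome 4 (61917211 to 61923003) with -0.30 and 0.0477 in the authors' deposited table. On chromosome 12, 37 of 44 neighbours were negative and 3 wider ones were called negative. Near Olfr444 and Mup5 the neighbours' medians were above 0, at 0.11 and 0.03. Across all 22 called members, the neighbours' median had the same sign in 7 of 12 positive and 7 of 10 negative cases. Over all regions of the 17 chromosomes 53.7% were negative. The pairs at Dusp27 and Gpa33, near Vmn1r208 and beside the Cyp3a cluster share neighbours, so these cases are not independent.

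**Figure D4:**
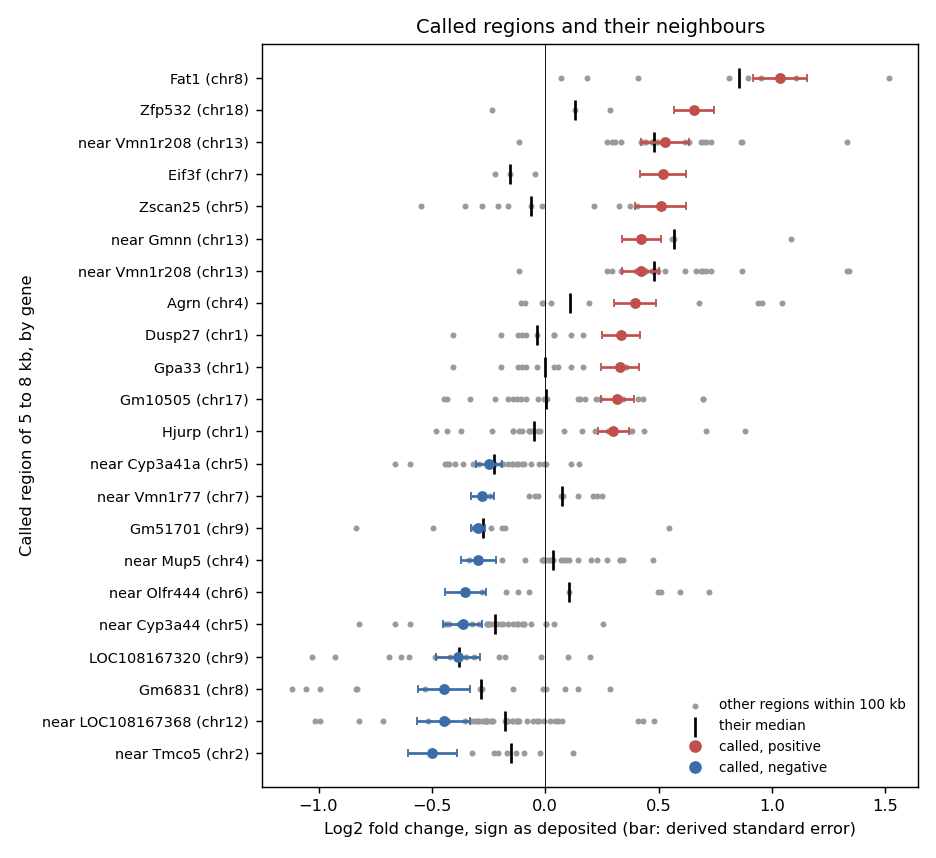
Log2 fold change, sign as deposited (horizontal axis), of the 22 called regions of 5 to 8 kb (red positive, blue negative, bar for the derived standard error), each named by the gene it overlaps or the nearest protein-coding gene, with all other regions within 100 kb (grey) and their median (black tick). Neighbours of Fat1 and of the chromosome 13 members share the positive sign, while those of Eif3f are all negative.

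Gene lists were matched to members within 5 kb of a gene body. Imprinted genes, expressed from the allele of 1 parent, had 3 members among the 65 genes of the list, and none was called (1 had an unadjusted p below 0.05). Of all members 2.04% were called, and of all regions 0.281%. The list's 147 regions of all widths, taken from all chromosomes, had a median of -0.03 and 7 calls. The 3 members, taken without chromosomes 11 and 16, do not stand for the list. The member over the start of Plagl1, a zinc finger transcription factor, which also overlaps the noncoding RNA gene Hymai (chromosome 10, 13087532 to 13093107, 128 CPM), covers the CpG-rich window printed above. It had -0.24 (SE 0.08, FDR 0.358) in the authors' deposited table. The member at Igf2, a fetal growth factor (chromosome 7, 142665631 to 142671610), had -0.02, and the value in Inpp5f (chromosome 7, 128683967 to 128689559) was -0.05, both with FDR 1 by the authors' deposited table.

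Zinc finger genes taken by symbol, many of which encode repressors that bring H3K9me3 to DNA, had 21 members at 23 of 491 genes. Their median was 0.03 and 14 of 21 were positive, beside 257 of all 1076 members and a median of -0.05 for members in protein-coding genes. The values ran from -0.20 to 0.66, 2 members (Zfp532 and Zscan25) were called positive and 0 negative, where 2.04% of all members and 0.281% of all regions were called. The list's 550 regions of all widths, taken from all chromosomes, had a median of -0.02 and 6 calls. The member with the next smallest p lies at Zfp553, Zfp771 and Septin1 on chromosome 7 (127234643 to 127242189) and had 0.25 (FDR 0.292) in the authors' deposited table. At the start of Zfp872 (chromosome 9, 22184299 to 22189329) the authors' deposited table gives 0.03 (FDR 1). The position in the gene was available for 10 pairs of a member and a zinc finger gene, while 17 members overlapped such a gene. Zfp532 was not among the 10. Their centres lay at a median of 67.5% of the gene's length from its start. The median was 54.6% for 147 pairs of a member and another protein-coding gene, also an incomplete set. A centre can lie outside the gene, as at Zfp553 with 104%.

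Vomeronasal receptor genes, which encode pheromone receptors, had 7 members, all negative, with a median of -0.14 and the 1 call near Vmn1r-ps60. Of all 1076 members 76.1% were negative and 2.04% were called, and 0.281% of all regions were called. Relative to regions of like signal the median of the 7 was -0.04. The list's 451 regions of all widths, taken from all chromosomes, had a median of -0.05 and 5 calls. The members near Vmn2r-ps135 (chromosome 19, 13927396 to 13934165) and Vmn1r-ps147 (chromosome 17, 21215137 to 21222605) had -0.29 and -0.20 with FDR values of 0.343 and 0.922 in the authors' deposited table. With gene bodies alone the list held 1 member and 0 calls, and with an extension of 10 kb it held 14 members, 12 of them negative, with 1 negative and 1 positive call (0.42), so not all members of the wider list were negative. Olfactory receptor genes had 6 members from -0.24 to 0.12, none called by the authors' FDR and 1 with an unadjusted p below 0.05. The list of 2-cell-stage genes had 1 member, 3886 bp from Gm8300 on chromosome 12, with -0.20, and the list of H3K9 methylation and silencing factors had 1, at Tasor2, a relative of the HUSH complex subunit TASOR, with -0.13. In the authors' deposited table both have FDR 1. Clustered protocadherins, germline and meiosis genes, pluripotency genes, genes derived from retroelements, and fibroblast genes as markers of feeder cells, had 0 members each.

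Members with a promoter window of a protein-coding gene wholly inside numbered 15, and 9 of them were positive, with a median of 0.02. The 2 calls among them were Fat1 and, with the opposite sign, LOC108167320. Of the 3 uncalled members whose promoters are printed above, Fbxw23 (chromosome 9, 109538936 to 109546634, 135 CPM) had -0.19 (FDR 0.852) in the authors' deposited table, close to Plagl1, while Zfp872 was near 0. The CpG-poor windows of Fat1 and Fbxw23 stood in members of opposite sign. For the member at an internal start of Anxa9, an annexin gene (chromosome 3, 95305735 to 95310917), the authors' deposited table lists 0.0088 (FDR 1). Promoter windows of chromosome 18 were not used here, and some genes elsewhere, such as Tap2 on chromosome 17, had none. The count of 15 is therefore a lower limit.

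The negative lean of the members was seen on every one of the 17 chromosomes, with medians from -0.13 on chromosome 12 to -0.06 on chromosome 15. Each was lower than the median of all regions of its chromosome, by 0.02 on chromosome 7 to 0.08 on chromosome 3. Members made up 1.28% of the regions of chromosome 15 and 2.32% of those of chromosome 17. On the chromosomes left out, regions of the same width had medians of 0.22 over 61 regions on chromosome 11 and 0.21 over 48 on chromosome 16, where 8 and 14 were called positive. With each chromosome's own median subtracted these became -0.06 and -0.11, beside -0.06 for the members. The 12 on chromosome X had a median of -0.10, with 83.3% negative. With all chromosomes and scaffolds the count of called regions of this width was 46 of 1203 in place of 22, 34 of them positive.

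**Figure D5:**
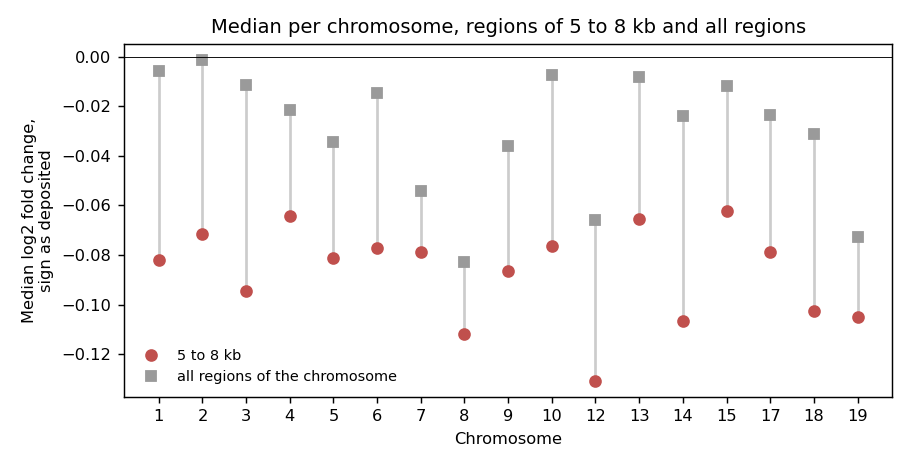
Median log2 fold change, sign as deposited (vertical axis), of regions of 5 to 8 kb (red circles) and of all regions (grey squares) on each of the 17 chromosomes used (horizontal axis). The red circle lies below the grey square on each chromosome, with the lowest at -0.13 on chromosome 12.

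Members lay in 702 windows of 1 Mb, of which 460 held 1 member, and 214 members (19.9%) had another within 50 kb. The fullest window, chromosome 7 from 11 to 12 Mb, had 8 members, 7 of them negative, with values from -0.21 to 0.0051 and no call by the authors' FDR. Chromosome 12 from 20 to 21 Mb had 6, all negative, from -0.45 to -0.11 with 1 call. Chromosome 5 from 104 to 105 Mb was mixed, with 5 members from -0.28 to 0.21 and no call. The gene with the most members was Map3k4, a kinase of stress signalling, with 3 from -0.20 to -0.04, none called.

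Set beside wider regions, members had more balanced calls. Of 373 regions of 8 kb or more, 27 (7.24%) were called, 4 positive and 23 negative, at a median signal of 166 CPM, while 25 of 2998 regions of 3 to 5 kb (0.834%) were called, 18 positive and 7 negative, at 50.6 CPM. The median log2 fold changes were -0.07, -0.09 and -0.10 from narrow to wide, and relative to regions of like signal 0.0082, 0.0069 and 0.0022. Each class is part of that reference, so these relative values are partly fixed in advance. The difference in the balance of calls was not tested, since regions are not replicates, and signal rises with width.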

How the data were processed

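Chromatin immunoprecipitates and input DNA were sequenced in 12 libraries, 3 per genotype and kind. Build mm10 and, without their roles, the tools edgeR, bedtools 2.25.0, HOMER 4.8 and Bowtie2 2.2.6 are listed in the submitters' processing notes. The authors deposited a table of 1 comparison that gives each region's log2 fold change, its log2 CPM, the p-value and the FDR, per the file headers. The sources used here do not say how regions were defined, which libraries entered, whether input was used or which genotype was the reference. With 0 columns of single libraries, depth per library and replicate spread were not analysed, and the planned count tests were replaced by description.

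Regions were selected by width and set against RefSeq gene bodies (GRCm38.p6) with Python 3.11.15, pandas 2.3.3 and scipy 1.17.1. Width is end minus start, and coordinates are as deposited. Standard errors were derived from the authors' log2 fold changes and p-values (absolute change divided by the normal deviate of the 2-sided p, where that deviate was at least 1). A region was called at a deposited FDR below 0.05. Named regions were all called members, those of highest signal, of highest and lowest signal per kb, of smallest p per gene list, at the width limits and over gene starts. The crowded windows and Map3k4 were named after their values were seen. Scripts were tested on simulated data. The members, gene lists and alternatives were chosen with earlier results of these data known.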

Additional observations from a re-analysis of the deposited data

How the results depend on the processing

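The 22 calls (12 positive, 10 negative) were 13 at an FDR below 0.01, with 4 negative, and 7 under Holm adjustment, 5 positive and 2 negative. With Benjamini-Hochberg adjustment over the 17 chromosomes 6 negative calls were left. Widths of 4500 to below 8500 bp gave 34 calls, 21 positive, and all chromosomes and scaffolds 46, 34 positive. The negative median log2 fold change of the members turned to 0.0069 and that of members in protein-coding genes to 0.045 after subtraction of the median of like signal, the latter an alternative chosen after seeing the data. The negative share of 76.1% became 47.4% with that subtraction, 68.5% with the chromosome's median subtracted and 69.7% over all chromosomes. The regions of like signal include the members, so the values relative to them are partly fixed in advance. The share in protein-coding genes, 21.1%, was 29.3% with genes extended by 5 kb, 17.9% by the member's centre and 24.3% for widths of 5500 to below 7500 bp. The vomeronasal list, with 1 negative call, had 0 calls with gene bodies alone and 2 with 10 kb, 1 of them positive. The cause of these shifts was not tested. No paired analysis was possible because the table holds no values of single libraries, and for the same reason leaving out each replicate and other count normalizations were not run.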
